A study of Homo sapiens with 8 samples.

Results

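The unfolded protein response and endoplasmic reticulum (ER) folding genes were followed in HepG2 cells, a human line from a liver tumour, with EDN1 overexpression and in mock cells. The product of EDN1 is a precursor protein that passes through the ER and is cut to endothelin-1, a peptide that constricts blood vessels. The members were 39 genes fixed by symbol, of 24462 genes in the count table. By symbol 38 of them had a row, and SELS was taken from the row VIMP, since RefSeq gives both as older names of SELENOS. Of the 39, 38 passed the filter on low counts, and ERN1 did not. The EDN1 overexpression group and the mock group each held 4 RNA libraries of cells grown in the same medium with no further treatment. The labels do not say how EDN1 was introduced, what the mock cells received, whether a clone or a pool was used, or whether the libraries are separate cultures. The p-values therefore cover the spread between these libraries, which may be technical.

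Secretory proteins enter the ER through the SEC61 channel and are folded there by chaperones, lectins and disulfide isomerases. When unfolded protein builds up, the sensors ERN1 (IRE1) and ATF6 and the PERK kinase signal to the nucleus. ERN1 splices XBP1 mRNA into a form that encodes an active transcription factor, and ATF6 is cut in the Golgi to free one. Both factors raise transcription of chaperone and ER-associated degradation genes, and the liver depends on this system because it secretes most plasma proteins. The gene counts used here do not separate the spliced from the unspliced XBP1 mRNA.

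The known response elements in the members' promoters are shown first, since ATF6 and XBP1 are known to act through such elements. RefSeq promoter windows (GRCh38.p14, 250 bases before to 50 after a start) were at hand for 35 of the 39 members. The ER stress response element ERSE, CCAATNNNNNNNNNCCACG, was searched on both strands. It was found in 7 of the 35 members (20%), against 0.0916% of the 27305 genes with a window. The ERSE-II element, ATTGG and CCACG with 1 base of any kind between them, was found in 3 members (8.57%), against 0.0696% of genes. The 8-base element UPRE, TGACGTGG, was found in 5 members (14.3%), against 0.927% of genes, and its match in HYOU1 overlapped an ERSE-II match. The shares over all genes include the members, and the difference between the shares was not tested. These are matches of letters and say nothing of binding in HepG2 cells. One match is shown for each ERSE and ERSE-II gene, read on the strand that carries it, with the fixed letters of the element in capitals.
HSPA5 ERSE, chr9:125241391-125241409: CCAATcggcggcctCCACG
HSP90B1 ERSE, chr12:103930321-103930339: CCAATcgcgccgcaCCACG
CALR ERSE, chr19:12938384-12938402: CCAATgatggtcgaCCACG
CANX ERSE, chr5:179698778-179698796: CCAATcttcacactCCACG
CRELD2 ERSE, chr22:49918554-49918572: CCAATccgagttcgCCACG
PDIA6 ERSE, chr2:10812853-10812871: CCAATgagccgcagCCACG
XBP1 ERSE, chr22:28800603-28800621: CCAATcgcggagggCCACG
SDF2L1 ERSE-II, chr22:21642114-21642124: ATTGGtCCACG
HYOU1 ERSE-II, chr11:119057274-119057284: ATTGGaCCACG
HERPUD1 ERSE-II, chr16:56932025-56932035: ATTGGgCCACG

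The 200 bases upstream of the start are shown for HSPA5, CRELD2 and SDF2L1, the chaperone genes whose values in single libraries are described first. Capitals mark the fixed letters of ERSE or ERSE-II. Each is written 5′ to 3′ on the gene's strand, so an element on the other strand appears reversed (CGTGG for CCACG, and ATTGG and CCAAT in each other's place).
HSPA5, chr9:125241344-125241543, minus strand: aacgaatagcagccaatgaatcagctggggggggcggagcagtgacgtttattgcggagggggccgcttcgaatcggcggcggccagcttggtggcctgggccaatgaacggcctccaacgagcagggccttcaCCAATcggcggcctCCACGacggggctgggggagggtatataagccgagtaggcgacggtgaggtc
CRELD2, chr22:49918434-49918633, plus strand: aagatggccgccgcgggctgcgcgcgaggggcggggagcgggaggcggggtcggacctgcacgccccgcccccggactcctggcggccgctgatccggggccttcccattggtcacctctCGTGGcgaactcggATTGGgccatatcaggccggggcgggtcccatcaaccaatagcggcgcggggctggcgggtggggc
SDF2L1, chr22:21642102-21642301, plus strand: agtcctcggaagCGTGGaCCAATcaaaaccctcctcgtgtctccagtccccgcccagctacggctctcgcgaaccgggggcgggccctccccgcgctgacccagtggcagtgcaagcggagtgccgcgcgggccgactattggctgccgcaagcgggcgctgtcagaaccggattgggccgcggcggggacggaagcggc

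**Figure D1:**
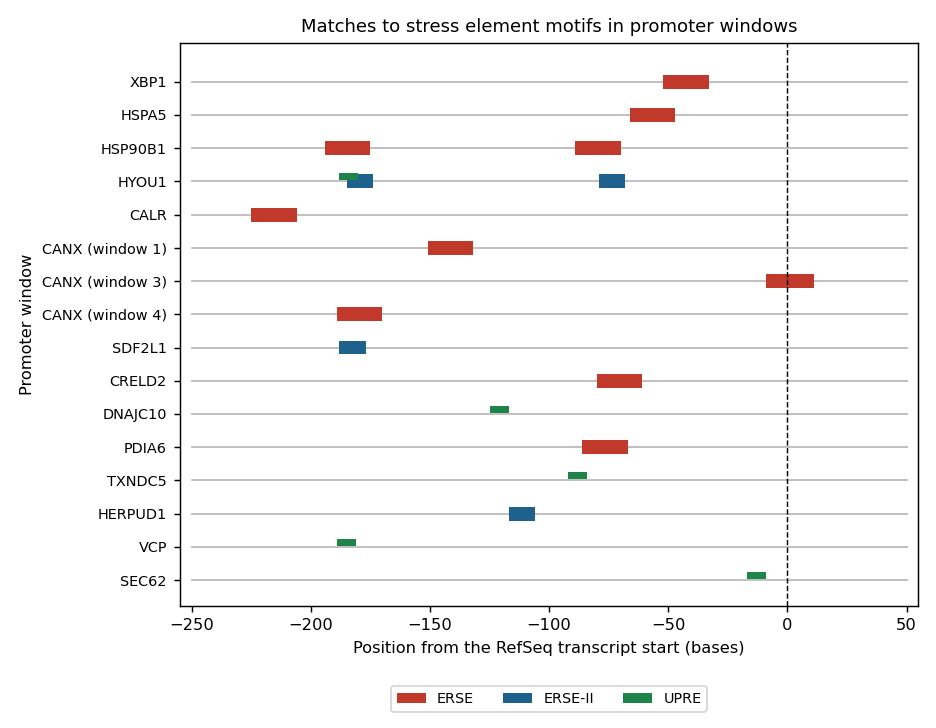
Positions of ERSE (red), ERSE-II (blue) and UPRE (green) matches in RefSeq promoter windows of the members that hold one; the x axis is the distance in bases from the transcript start (dashed line) and each grey line is one window. The HSPA5 match runs from -66 to -48, the XBP1 match from -52 to -34 and the SDF2L1 match from -188 to -178, and CANX shows one site in 3 of its windows.

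Total counts per library ran from 8571252 to 11686180 in EDN1 overexpression and from 8409173 to 14932385 in mock. EDN1 averaged 363 ± 149 CPM (a count relative to the library's total, scaled by TMM) in EDN1 overexpression and 1.45 ± 0.561 CPM in mock (SD, n = 4 each), so the libraries matched their labels. All 10 hepatocyte markers passed the filter, and their summed level (CPM of library totals, without TMM) was 5963 to 8131 in EDN1 overexpression and 6037 to 8292 in mock, most of it APOB. AFP, the fetal albumin-like protein that marks this line, averaged 595 ± 295 CPM in EDN1 overexpression and 1028 ± 375 CPM in mock (SD, n = 4 each). The log2 fold change of AFP was -0.79 (SE 0.35), with an unadjusted p of 0.0470 and an adjusted p of 1.00 in edgeR, and it was -1.05 and -1.02 within the first and second sets. FGA and FGB, fibrinogen chains, were at -0.48 (SE 0.29) and -0.49 (SE 0.35) in log2 fold change. The part of these differences in the results for the folding genes was not tested. On the scale of library totals, blood and immune markers, 3 of 6 past the filter and mostly LYZ, summed to 380 to 771 in EDN1 overexpression and 414 to 763 in mock. Fibroblast and stellate markers, 2 of 6 past the filter, summed to 4.19 to 7.70 in EDN1 overexpression and 5.00 to 8.70 in mock. The endothelial markers all missed the filter, with at most 9 counts in any library, and CD3E, KDR and LUM were at 0 in all 8. Mock 4, EDN1 overexpression 3 and EDN1 overexpression 4 (the second library set) were set apart from the other 5 libraries (the first set) in an earlier analysis of these counts, and no label gives a batch. On the first principal component within groups, which held 45.1% of the variance, mock 2 (11.3) lay with the second set, beyond EDN1 overexpression 3 (7.80). For the main genes the fold change is also given within each set, where the second set has 1 mock library. EDN1 itself had 228 and 259 CPM in EDN1 overexpression 1 and 2, and 418 and 549 CPM in EDN1 overexpression 3 and 4. Its log2 fold change was 7.28 and 8.43 within the first and second sets. The part of this difference in the EDN1 level in the set differences of other genes was not tested.

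None of the 38 tested members passed the test for EDN1 overexpression, in either direction. Testing by edgeR (quasi-likelihood F, Benjamini-Hochberg adjustment over 12577 genes, threshold 0.05) called 1 gene, EDN1 itself (0.00795%), and the smallest adjusted p of a member was 1.00. At an unadjusted p under 0.05 by edgeR there was 1 member, CRELD2, of 38, against 359 genes (2.85%) over all. By limma voom and by DESeq2 the number of members called was also 0. Fold changes were positive in 24 of 38 members, against 50.3% of all genes, with a median log2 fold change of 0.07 against 0.00 over all genes. The 95% interval lay within 2-fold either way for 37 of 38 members, all but CRELD2, against 79.4% of all genes. It lay within 1.5-fold for 16 of 38 members, against 4810 of the 12577 genes tested. With library set fitted beside the group, 21 of 38 fold changes were positive, with a median log2 fold change of 0.03. That median was 0.02 in the first set alone and 0.03 in the second alone, with 21 and 22 positive. These are RNA levels of whole cultures, in which fewer cells of a kind and less RNA per cell cannot be told apart.

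**Figure D2:**
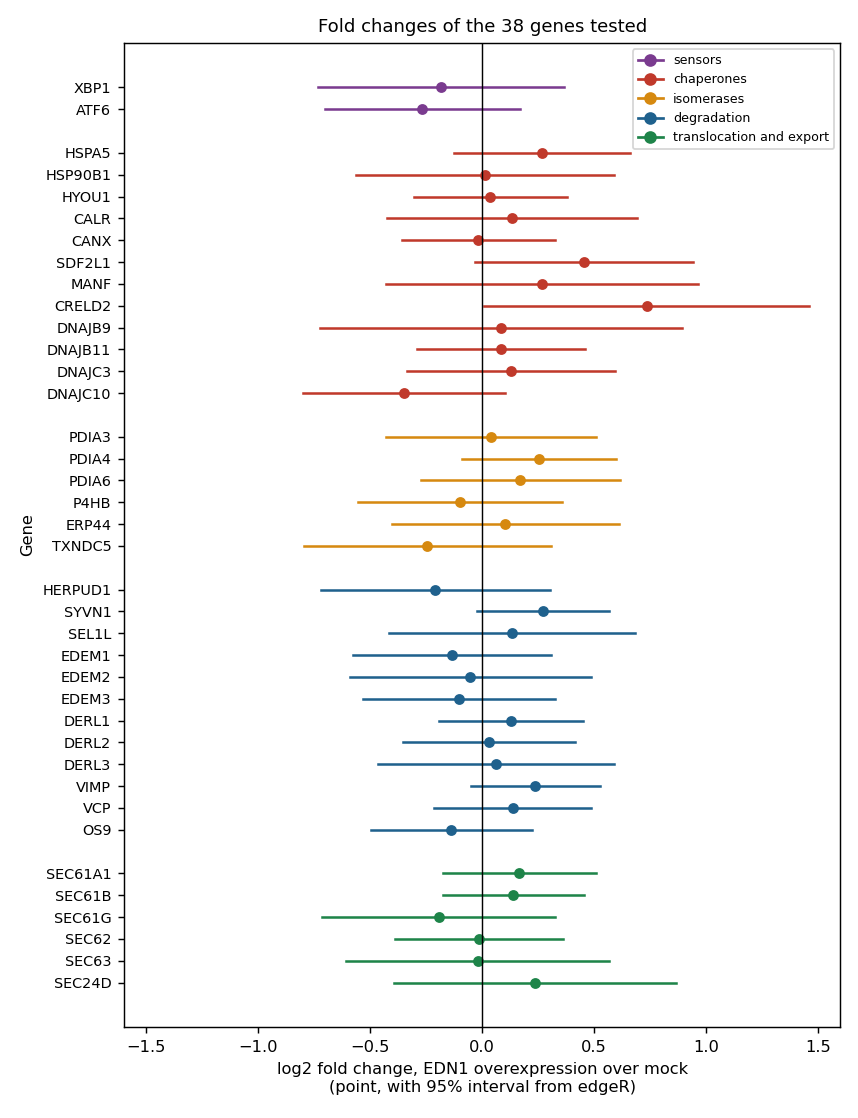
Log2 fold changes, EDN1 overexpression over mock, of the 38 tested members by role, as points with 95% intervals from edgeR. CRELD2 alone has an interval that leaves out 0, from 0.01 to 1.46, and no member passed the adjusted threshold.

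Among the 12 chaperones and cochaperones, 10 fold changes were positive and 2 negative, with a median log2 fold change of 0.11 over all libraries. Within the library sets 8 were positive in both and 4 negative in both, with medians of 0.03 in the first and 0.06 in the second. HSP90B1, HYOU1 and DNAJB9 were positive over all libraries and negative within both sets. HSPA5 encodes BiP, the main ER chaperone and the brake on the sensors. It had 2177, 1498, 2012 and 1751 CPM in EDN1 overexpression 1 to 4, against 1293, 1876, 1508 and 1504 CPM in mock 1 to 4. Libraries 1 and 3 of EDN1 overexpression lay above every mock library and libraries 2 and 4 lay within the mock range. Its log2 fold change was 0.27 (SE 0.18, 95% interval -0.13 to 0.66), and 0.24 and 0.31 within the first and second library sets.

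CRELD2, an ER-resident and secreted protein with disulfide isomerase activity, had 53.1, 25.6, 54.9 and 18.7 CPM in EDN1 overexpression 1 to 4. Mock 1 to 4 had 27.3, 19.2, 19.4 and 25.8 CPM. EDN1 overexpression thus held both the highest and the lowest of the 8 libraries. The log2 fold change was 0.73 (SE 0.33, 95% interval 0.01 to 1.46), and edgeR gave an unadjusted p of 0.0476, which was 1.00 after adjustment. It was 0.51 without EDN1 overexpression 3 and 0.96 without EDN1 overexpression 4. The unadjusted p was no longer under 0.05 when EDN1 overexpression 1 or 3, or any 1 mock library, was left out. Within the first and second sets the log2 fold change of CRELD2 was 0.84 and 0.50.

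SDF2L1, a stress-induced partner of ER J proteins, had 210, 123, 225 and 131 CPM in EDN1 overexpression 1 to 4, against 109, 148, 113 and 134 CPM in mock 1 to 4. As with HSPA5 and CRELD2, libraries 1 and 3 were above every mock library and libraries 2 and 4 were not. The log2 fold change of SDF2L1 was 0.45 (SE 0.22, 95% interval -0.03 to 0.94; unadjusted p = 0.0651 by edgeR), and it was 0.44 and 0.40 within the sets. This arrangement, with EDN1 overexpression 1 and 3 above every mock library and 2 and 4 not above, was seen in 4 of 38 members (10.5%: HSPA5, CRELD2, SDF2L1 and VCP), against 5.43% of all genes. It was looked for after the values had been seen. In the reverse arrangement, libraries 1 and 3 lay below every mock library and libraries 2 and 4 did not. That was seen in 2 members (5.26%: ATF6 and HERPUD1), against 5.51% of all genes. Wherever libraries 2 and 4 lay, libraries 1 and 3 were above every mock library in 7 members (18.4%), against 11.5% of all genes. They were below every mock library in 4 members (10.5%: ATF6, DNAJC10, HERPUD1 and EDEM3), against 9.66% of all genes.

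**Figure D3:**
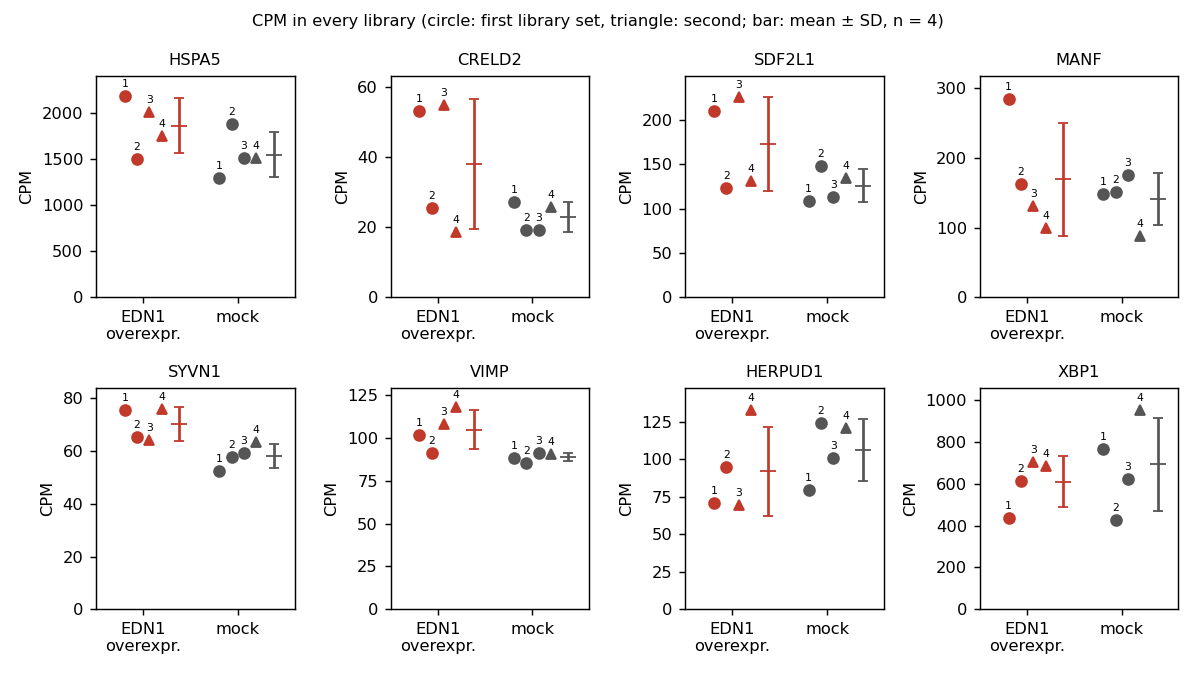
CPM of 8 members in each library, with EDN1 overexpression in red and mock in grey, circles for the first library set, triangles for the second, the replicate number above each point and the mean ± SD (n = 4) beside each group. HSPA5, CRELD2 and SDF2L1 are highest in EDN1 overexpression 1 and 3, SYVN1 separates the groups narrowly and HERPUD1 and XBP1 overlap widely.

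Over all libraries, the most counted chaperones besides HSPA5 had smaller log2 fold changes than HSPA5. CALR encodes calreticulin, a calcium-binding lectin chaperone. CALR had 1570, 1264, 1085 and 671 CPM in EDN1 overexpression 1 to 4, against 1242, 1106, 1072 and 768 CPM in mock 1 to 4. Its lowest library in each group was number 4, and it had a log2 fold change of 0.13 (SE 0.25). Leaving out EDN1 overexpression 1 gave -0.06. The log2 fold change of CALR was 0.31 and 0.18 within the first and second sets. With library set fitted beside the group it was 0.27, and that of HSPA5 was also 0.27. HSP90B1 encodes GRP94, the ER member of the Hsp90 family. HSP90B1 had 754.5, 817, 860 and 1487 CPM in EDN1 overexpression 1 to 4, against 676.5, 1139, 849 and 1222 CPM in mock 1 to 4. EDN1 overexpression 4 stood above the other 7 libraries, and the log2 fold change was 0.01 (SE 0.26), or -0.26 without that library. The copy HSP90B2P had 740 to 1834 counts per library, and reads could be split between it and HSP90B1. CANX encodes calnexin, a membrane-bound lectin, and its log2 fold change was -0.02 (SE 0.15). CANX had 643, 578, 551 and 478 CPM in EDN1 overexpression 1 to 4 and 542, 632, 621 and 482 CPM in mock 1 to 4.

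The remaining chaperone genes ran from a log2 fold change of -0.35 for DNAJC10 (SE 0.20), a J protein with disulfide reductase activity, to 0.27 for MANF (SE 0.32), an ER-retained and secreted factor. MANF had 284, 163, 130 and 100 CPM in EDN1 overexpression 1 to 4, against 149, 151, 176 and 87.9 CPM in mock 1 to 4. EDN1 overexpression 1 was its highest library, and without it the fold change was -0.10 on the log2 scale. DNAJB9, a J protein that represses ERN1, spread most of the members between libraries. DNAJB9 ran from 17.1 to 39.96 CPM in EDN1 overexpression and from 9.83 to 29.2 CPM in mock. HYOU1, a nucleotide exchange factor for BiP, had 288 to 353 CPM in EDN1 overexpression and 250.2 to 347 CPM in mock. The BiP cochaperones DNAJB11 and DNAJC3 were at 0.08 (SE 0.17) and 0.13 (SE 0.21) in log2 fold change.

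Of the 3 sensor and transcription factor genes, the tested ones had negative fold changes. XBP1 had 434, 614, 702 and 685 CPM in EDN1 overexpression 1 to 4, against 766, 424, 624 and 952 CPM in mock 1 to 4. All 4 EDN1 overexpression libraries of XBP1 lay within the mock range, and its log2 fold change was -0.18 (SE 0.25, 95% interval -0.74 to 0.37). It was -0.36 without mock 2 and 0.01 without mock 4, so its size depended on single mock libraries. Mock 4 is the only mock library of the second set, so leaving it out mixes the set with the group. ATF6 had 29.8, 33.9, 20.7 and 36.3 CPM in EDN1 overexpression 1 to 4, against 36.8, 42.9, 35.6 and 30.1 CPM in mock 1 to 4. Its log2 fold change was -0.27 (SE 0.20), and EDN1 overexpression 3 was its lowest library. ERN1 had 10, 6, 3 and 3 counts in EDN1 overexpression 1 to 4 and 9, 3, 5 and 5 counts in mock 1 to 4, too few for a test. XBP1 differed more between the library sets than ATF6 (log2 difference 0.51 against -0.25), with 780 CPM in the second set and 572 CPM in the first. Within the first and second sets the fold changes of XBP1 were -0.21 and -0.47 on the log2 scale. With library set fitted beside the group the log2 fold change of XBP1 was -0.30.

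The 6 disulfide isomerase and thiol oxidoreductase genes had 4 positive and 2 negative fold changes. PDIA4 had 289, 313, 327 and 387 CPM in EDN1 overexpression 1 to 4, against 248, 296, 239.9 and 319.5 CPM in mock 1 to 4. The groups overlapped, and the log2 fold change was 0.25 (SE 0.16, 95% interval -0.09 to 0.60). TXNDC5 had 155, 149, 94.6 and 173 CPM in EDN1 overexpression 1 to 4, against 131, 253, 160 and 133 CPM in mock 1 to 4. Mock 2 was its highest library, and its log2 fold change of -0.24 (SE 0.25) was 0.01 without mock 2. Exons of TXNDC5 overlap BLOC1S5-TXNDC5 on the same strand, so their reads may not be told apart. PDIA6, an isomerase that also acts on the sensors, had 794, 788, 1032 and 1135 CPM in EDN1 overexpression 1 to 4, against 637.5, 905, 729 and 1059 CPM in mock 1 to 4. The groups overlapped, and its log2 fold change was 0.17 (SE 0.20). Exons of PDIA6 overlap ATP6V1C2 on the other strand, with the same limit. P4HB, the classical protein disulfide isomerase and a subunit of collagen prolyl hydroxylase, had 788, 781, 521 and 568 CPM in EDN1 overexpression 1 to 4, against 670.3, 872, 783 and 525 CPM in mock 1 to 4. The second set held its low libraries in both groups, and its log2 fold change was -0.10 (SE 0.21). PDIA3, the partner of calnexin and calreticulin, had 204.5, 226, 278 and 279 CPM in EDN1 overexpression 1 to 4, against 159, 273, 219.5 and 309 CPM in mock 1 to 4. PDIA3 had both its extremes in mock and was at 0.04 (SE 0.21) in log2 fold change, and the copy PDIA3P1, with 247 to 891 counts per library, could share its reads. ERP44, which retains proteins by thiol bonds, was at 0.10 (SE 0.23) on the same scale.

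The 12 genes of ER-associated degradation had 7 positive and 5 negative fold changes, the lowest -0.21 and the highest 0.27 on the log2 scale. SYVN1 encodes HRD1, the ubiquitin ligase of the degradation channel. SYVN1 had 75.4, 65.2, 64.2 and 75.6 CPM in EDN1 overexpression 1 to 4, against 52.3, 57.6, 59.1 and 63.4 CPM in mock 1 to 4. It was the 1 member of 38 whose groups did not overlap, against 2.04% of all genes (1.38% higher and 0.668% lower in EDN1 overexpression). Only 64.2 CPM in EDN1 overexpression 3 against 63.4 CPM in mock 4 kept the groups of SYVN1 apart. Exons of SYVN1 overlap MRPL49 on the other strand, so their reads may not be told apart. Its log2 fold change was 0.27 (SE 0.13, 95% interval -0.02 to 0.57), and edgeR gave an unadjusted p of 0.0674, or 1.00 adjusted. Within the first and second sets it was 0.32 and 0.13, and with mock 3 left out and the scaling recomputed the groups of SYVN1 overlapped. VIMP (SELENOS), a selenoprotein that links VCP to the degradation complex, had 102, 91.1, 108 and 118 CPM in EDN1 overexpression 1 to 4. Mock 1 to 4 had 88.1, 85.5, 91.3 and 90.3 CPM, so EDN1 overexpression 2 lay just below mock 3. The log2 fold change of VIMP was 0.24 (SE 0.13, 95% interval -0.05 to 0.52).

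HERPUD1, a membrane scaffold of the same ligase complex, had 70.8, 94.7, 69.55 and 133 CPM in EDN1 overexpression 1 to 4, against 79.8, 124, 100.6 and 121 CPM in mock 1 to 4. EDN1 overexpression held its highest and its lowest libraries, and its log2 fold change was -0.21 (SE 0.23), or -0.44 with EDN1 overexpression 4 left out. VCP, the ATPase that pulls substrates from the membrane, had 307, 234, 370 and 272 CPM in EDN1 overexpression 1 to 4, against 270, 275, 257 and 275 CPM in mock 1 to 4. Mock libraries were close together for VCP (SD 8.47 CPM) and those of EDN1 overexpression were not (SD 57.7 CPM), and the log2 fold change of VCP was 0.14 (SE 0.16). SEL1L, the adaptor that holds SYVN1 in place, had 63.7, 62.0, 104 and 111 CPM in EDN1 overexpression 1 to 4, against 56.7, 76.7, 71.8 and 106 CPM in mock 1 to 4. Its high libraries were those of the second set in both groups, and its log2 fold change was 0.13 (SE 0.25). The other genes, which encode the mannose-trimming proteins EDEM1, EDEM2 and EDEM3, the channel proteins DERL1, DERL2 and DERL3 and the lectin OS9, had log2 fold changes between -0.14 (OS9) and 0.13 (DERL1).

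The 6 translocation and export genes had 3 positive and 3 negative fold changes. SEC61A1, the pore subunit of the translocon, had 358, 280, 379 and 361 CPM in EDN1 overexpression 1 to 4, against 254, 340, 307 and 326 CPM in mock 1 to 4. All but EDN1 overexpression 2 lay above every mock library, with a log2 fold change of 0.17 (SE 0.16). SEC61B, a small subunit, had 213, 172, 182 and 168 CPM in EDN1 overexpression 1 to 4, against 147, 173, 188 and 161 CPM in mock 1 to 4. The groups overlapped, and its log2 fold change was 0.14 (SE 0.14). SEC61G, the other small subunit, had 681, 549.5, 420 and 754.5 CPM in EDN1 overexpression 1 to 4, against 504.5, 944, 699 and 605 CPM in mock 1 to 4. Its log2 fold change was negative at -0.19 (SE 0.24), and it was -0.00 without mock 2, its highest library. SEC62, a partner of the pore in post-translational import, had 205.5, 190, 212 and 277 CPM in EDN1 overexpression 1 to 4, against 212, 251, 181.5 and 249 CPM in mock 1 to 4. SEC62 and its partner SEC63 were at -0.01 (SE 0.17) and -0.02 (SE 0.27) in log2 fold change. SEC24D, a cargo adaptor of the COPII coat, had a log2 fold change of 0.23 (SE 0.28) at 10.5 ± 1.09 CPM in EDN1 overexpression and 8.98 ± 3.74 CPM in mock (SD, n = 4 each).

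Members were also read by their response elements. The 10 tested members with an ERSE or ERSE-II match had a median log2 fold change of 0.08, with 7 positive and a range from -0.21 (HERPUD1) to 0.73 (CRELD2). The 24 tested members with a window and neither element had a median of 0.06, with 13 positive and a range from -0.35 (DNAJC10) to 0.27 (SYVN1). These groups of genes were formed after the fold changes were known and were not tested.

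The library with the highest and the lowest level was counted over the members. EDN1 overexpression 4 was the highest library for 14 of 38 members and mock 2 for 9, while mock 1 was the lowest for 14 and EDN1 overexpression 3 for 9. The share over all genes was not counted, so these counts cannot be read as particular to the members. EDN1 overexpression 4 also lay farthest out on the first principal component over all genes (46.5). Together the 39 members took 1.21%, 1.04%, 1.11% and 1.09% of the counts in EDN1 overexpression 1 to 4, against 0.956%, 1.13%, 1.00% and 1.05% in mock 1 to 4. The members' mean centred log2 CPM ran from -0.07 to 0.14 in EDN1 overexpression and from -0.22 to 0.13 in mock, with mock 1 lowest. The median SD of log2 CPM within groups was 0.30 for the members, against 0.32 for all genes. VIMP (0.11) and SYVN1 (0.12) varied least and DNAJB9 (0.65), CRELD2 (0.58) and MANF (0.55) most.

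**Figure D4:**
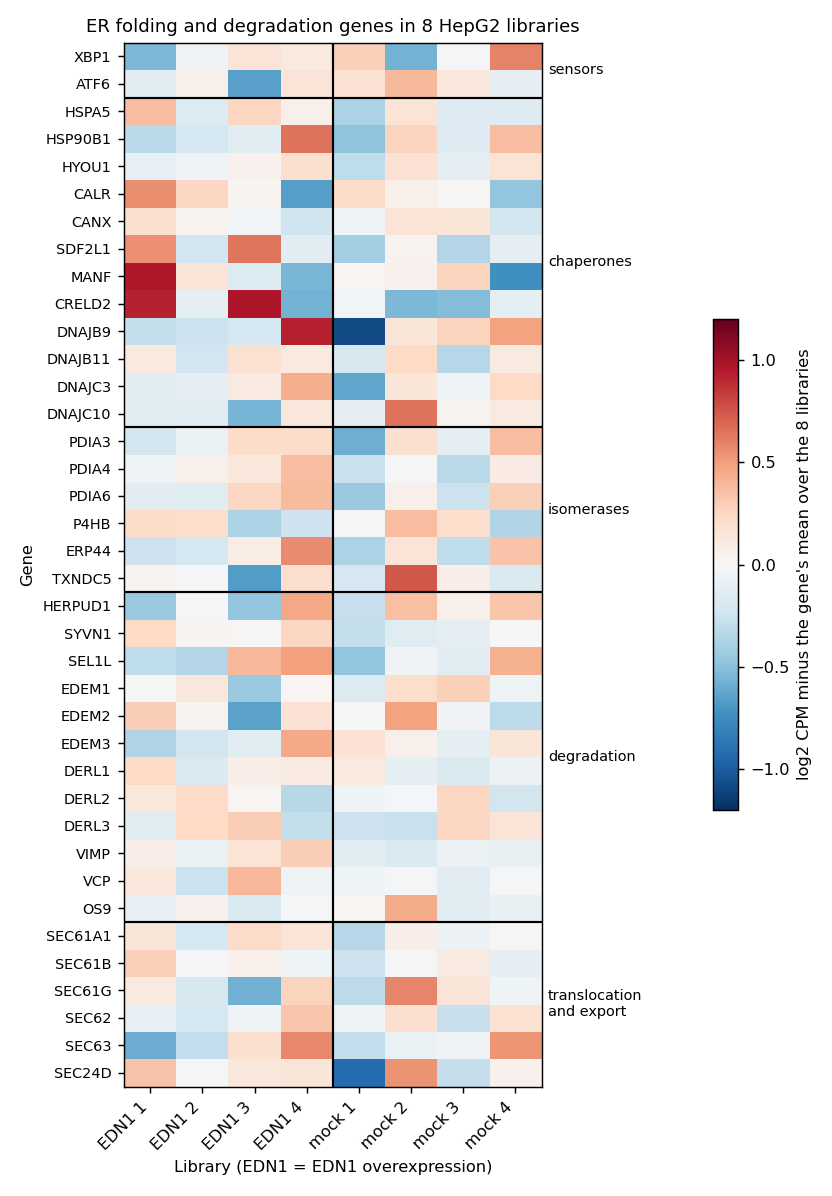
Log2 CPM of the 38 tested members minus each gene's mean over the 8 libraries (colour, red above and blue below), with EDN1 overexpression on the left of the vertical line and mock on the right. CRELD2 is highest in EDN1 overexpression 1 (0.92) and 3 (0.97), and DNAJB9 is highest in EDN1 overexpression 4 (0.93) and lowest in mock 1 (-1.07).

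The difference between the library sets was fitted beside the group. A log2 difference beyond 0.5 either way was seen in 9 of 38 members, against 26.1% of all genes, and these values are given with no test because the sets came from the same counts. Lower in the second set were MANF, CALR and P4HB. MANF averaged 106 CPM in the second set and 184 CPM in the first, a log2 difference of -0.91 (SE 0.19). CALR averaged 841 CPM in the second set and 1251 CPM in the first (-0.64, SE 0.18), and P4HB averaged 538 CPM in the second set and 779 CPM in the first (-0.54, SE 0.13). Higher in the second set were SEC63 at 217.5 CPM against 134.5 CPM in the first (log2 difference 0.76, SE 0.14), SEL1L (0.71, SE 0.13), DNAJB9 (0.68, SE 0.33), ERP44 (0.54, SE 0.16), HSP90B1 (0.53, SE 0.22) and XBP1 (0.51, SE 0.20). HSPA5 (-0.00, SE 0.18), CRELD2 (0.04, SE 0.35) and SDF2L1 (0.11, SE 0.23) had differences near 0 or small beside their SE.

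When edgeR was fitted with library set beside group, it called none of the 38 members, and MANF was the 1 member of 38 at an unadjusted p under 0.05, against 4.18% of all genes. The log2 fold change of MANF was then 0.46 (unadjusted p = 0.0307 by edgeR), against 0.27 without the term. Log2 fold changes of CRELD2 and SDF2L1 with the term were 0.73 and 0.43. Since the sets came from the same counts, p-values of this fit are a description and not a test. Fold changes were positive in both sets for 20 of 38 members, against 34.1% of all genes, and negative in both for 15 of 38, against 32.9%.

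**Figure D5:**
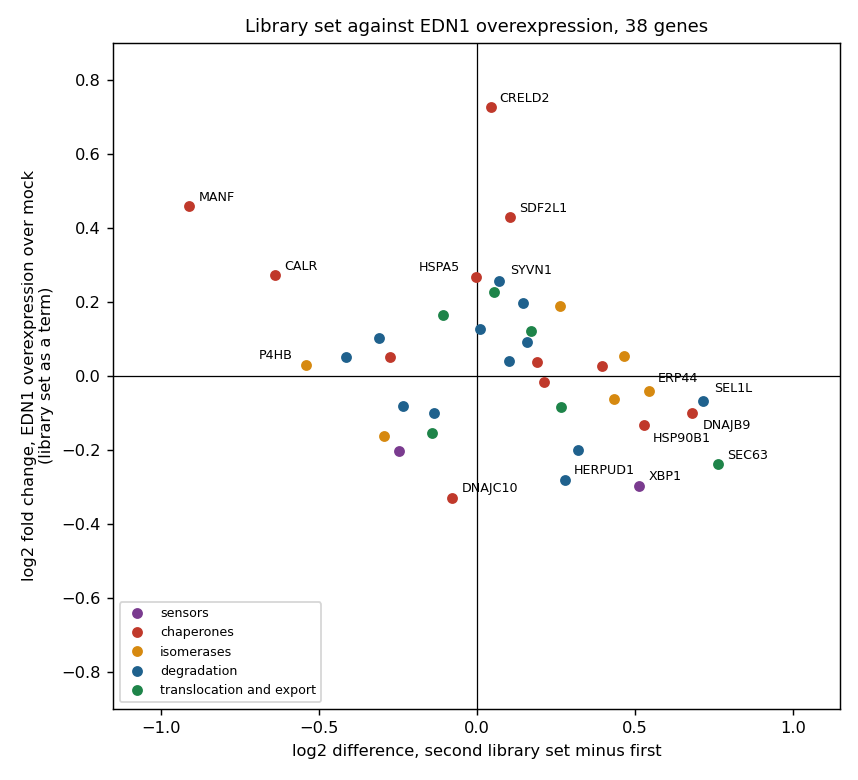
Each point is 1 of the 38 tested members: the x axis is the log2 difference of the second library set minus the first and the y axis the log2 fold change of EDN1 overexpression over mock, fitted together by edgeR. MANF (-0.91) and SEC63 (0.76) lie farthest out on the x axis and CRELD2 (0.73) on the y axis.

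Other genes of the same pathway were read from 7 lists of 78 genes, of which 77 passed the filter. None passed the test, 38 fold changes were positive and 39 negative, and the median log2 fold change was -0.01. Of the PERK arm and sensor protease list, 4 of 11 were positive. The stress transcription factor genes DDIT3 and ATF4 were at -0.30 (SE 0.16) and -0.31 (SE 0.18) in log2 fold change. Signal peptidase and translocon partner genes were positive in 9 of 13, led by SSR2 at 0.30 (SE 0.16) and SSR1 at 0.33 (SE 0.24). Among other cochaperones and retrieval receptors, 3 of 8 were positive, with the KDEL receptor gene KDELR3 at 0.29 (SE 0.17) and HSPA13 at -0.42 (SE 0.26). Genes of the glycan trimming and lectin cycle list were positive in 3 of 9, with MCFD2 at 0.16 (SE 0.14) and PRKCSH, a glucosidase subunit gene, at -0.48 (SE 0.29). Other oxidoreductases and prolyl isomerases were positive in 7 of 15 (FKBP2 at 0.28, SE 0.16, and TXNDC11 at 0.24, SE 0.16), other degradation genes in 7 of 11 (UBE2J1 at 0.16, SE 0.13, and FAF2 at -0.21, SE 0.13) and COPII coat genes in 5 of 10 (SEC23A at 0.24, SE 0.18, and SEC24B at -0.44, SE 0.20).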

How the data were processed

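RNA of 4 EDN1 overexpression and 4 mock libraries was prepared with a Lexogen Quant-Seq kit, per the labels' protocols. The deposited values are unnormalised read counts by gene symbol. Per the submitters' processing notes, Bowtie2, edgeR and hg19 were used; no source used here gives versions, the counting tool or its use of strand. Mean CPM was ranked between genes only to choose which are given in full, and differences in level between genes were not tested. By the GENCODE annotation, exons of 8 members overlapped another gene of the table (PDIA6, SYVN1, SEC61A1, PDIA3, DNAJB9, DNAJB11, DERL3 and TXNDC5), so their reads may not be told apart. The highest count in any library was 2047 for TXNDC5 and 2044 for BLOC1S5-TXNDC5. It was 15326 for PDIA6 and 14556 for ATP6V1C2. Whether the same reads were counted in both rows was not tested.

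Rows that share a symbol were added up (MARCH1 and MARCH2, whose rows are different genes, were kept apart). Genes were filtered with filterByExpr (minimum count 10) and TMM scaling was applied. Groups were tested by quasi-likelihood in edgeR 4.0.16 (R 4.3.3), with the group as the only term and a check on simulated counts; limma 3.58.1 and DESeq2 1.42.0 were alternatives. Each SE is the log2 fold change over the root of its F statistic. Centred values are log2 CPM (prior count 2). No 2 libraries matched within sampling noise (lowest chi-square per degree of freedom 6.39, for EDN1 overexpression 2 and mock 3). By the same measure EDN1 overexpression 2 was at 21.3, 57.6 and 58.2 against EDN1 overexpression 1, 3 and 4. It was at 15.1, 25.8 and 55.6 against mock 1, 2 and 4.

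Members and lists were chosen with earlier results of these data known. Genes given in full were all sensor and transcription factor genes and members whose groups do not overlap. In each other role they were the 4 with the highest mean CPM and the 2 with the smallest unadjusted p. The last rule also served in each other pathway list, where fold changes alone are given. Other members are given by range, and MANF was given by library after its values were seen.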

Additional observations from a re-analysis of the deposited data

Results flagged for a closer look

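Over the 38 tested members and EDN1, the 78 sets of 4 libraries were looked through for a library far from the rest of its group, a screen that flags about 1 in 20 such sets by chance. HSP90B1 was flagged because EDN1 overexpression 4 had 1487 CPM, with the nearest EDN1 overexpression library at 860 CPM, a gap of 0.856 of the range. DNAJB9 was flagged because the same library had 39.96 CPM, with the nearest at 18.1 CPM, a gap of 0.957 of the range.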

How the results depend on the processing

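No member and no other pathway gene was called under any of the 19 alternatives, and EDN1 was called under each. The number of genes called was 3 by DESeq2, against 1. The median log2 fold change of the members, 0.07 over all libraries, ran from -0.02 to 0.13 when single libraries were left out, and moved by less than the spread between libraries (SD 0.13) under all 19. The number of members whose groups do not overlap, 1 over all libraries, was 2 with library totals as the scaling (2.23% of all genes), 5 in the first library set alone (16.8% of all genes) and 11 in the second alone (45.6%), and ran from 0 to 3 when single libraries were left out (0 without mock 3, 2.76%; 3 without EDN1 overexpression 2, 5.68%, or 4, 6.54%). Members with a positive fold change were 17 of 38 without mock 1, 18 without EDN1 overexpression 4 and 29 without mock 2. Same-numbered libraries did not deviate together throughout (r = 0.477, 0.151, -0.149 and 0.528 for numbers 1 to 4). The mock library of the same number had the highest r for EDN1 overexpression 1 and 4 and not for 2 and 3. These values do not decide whether the number pairs the libraries. With the replicate number as a block, 1 gene, 0 members and 0 other pathway genes were called. EDN1 then had a log2 fold change of 7.87 and the members a median of 0.08. Genes at an unadjusted p under 0.05 by edgeR were 550 with the block, against 359. Counts under about 10 per library, as for ERN1, are too few for a fold change.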
